A study of Arabidopsis thaliana with 16 samples.

Results

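ATSPS4F (AT4G10120), SWEET2 (AT3G14770) and SWEET11 (AT3G48740) are 3 genes of leaf sugar metabolism, and each had 1 probe set on the array assigned to it alone. They were taken by those loci from 13356 genes with a probe set of their own, and 0 further probe sets listed any of them together with another gene. Leaf RNA of Arabidopsis thaliana, ecotype Col-0 (line Columbia), was hybridised to 16 Affymetrix arrays, 4 for each of 4 states of photosynthesis. All plants had grown at 22 °C in days of 10 h, at a light intensity of 350 µmol m-2 s-1 and a humidity of 60%, and the first fully expanded leaf was sampled. The baseline leaves were taken at the growth temperature. The heated states were the optimum, where photosynthesis peaked, and 20% and 30% inhibition, where it had dropped by that share below its peak. They were reached by raising the temperature stepwise (2 °C per 10 min) between 22 and 42 °C, with 20 to 30 min at the final temperature before sampling, and were set from earlier gas exchange measurements. Leaf temperatures per state, plant ages and sampling hours are not given in the labels, and each hotter state also came after more elapsed time, so heat and time cannot be told apart. The replicates were leaves of plants collected at random, per the labels, and the p-values cover only the spread among such leaf samples.

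In the light, leaf cells export triose phosphate from the chloroplast and turn it into sucrose in the cytosol. Sucrose-phosphate synthase, which ATSPS4F encodes as one of a small family of isoforms, makes sucrose-6-phosphate from UDP-glucose and fructose-6-phosphate, and a phosphatase then releases sucrose. SWEET proteins are membrane carriers that let sugars pass down their gradient. SWEET11 is known, with its close relative SWEET12, as a plasma membrane sucrose carrier of the phloem parenchyma that hands sucrose to the veins for export, while SWEET2 is known as a glucose carrier of the vacuolar membrane, described mainly in roots.

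All 3 genes were lower in every heated state than at the baseline, by different amounts. ATSPS4F fell at every step of the curve and was 12.6-fold lower at 30% inhibition than at the baseline. SWEET2 fell at the first 2 steps, had no detected change at the last, and was 4.65-fold lower at 30% inhibition than at the baseline. SWEET11, which changed the least of the 3, was called at the same steps as SWEET2 and was 1.84-fold lower at 30% inhibition. Over the 4 states, the moderated F test of limma called all 3 (adjusted p = 5.5e-11 for ATSPS4F, 6.2e-10 for SWEET2 and 1.4e-05 for SWEET11), against 54.0% of all 22746 probe sets tested.

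Against the baseline, all 3 were called lower at the optimum, where 8.43% of all probe sets were called lower and 16.6% in either direction. The same held at 20% inhibition (24.9% lower, 43.9% either) and at 30% inhibition (24.9% lower, 44.3% either). Against the optimum, all 3 were called lower at 20% inhibition (22.9% of all lower, 18.8% higher, 41.7% either) and at 30% inhibition (22.6% lower, 18.6% higher, 41.2% either). Between 30% and 20% inhibition 1 of the 3 was called lower, ATSPS4F (2.97% of all lower, 7.16% either). The arrays of all 3 genes did not overlap between each heated state and the baseline, as for 21.8%, 40.2% and 43.6% of all probe sets at the optimum, 20% and 30% inhibition. Against the optimum, 2 of the 3 did not overlap at 20% inhibition (36.1% of all) and all 3 did not at 30% inhibition (40.0%), and between 30% and 20% inhibition 1 did not (11.2%).

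The arrays stood close together within a state (correlations of 0.988 to 0.998) and less close between states (0.942 to 0.994). The log2 signals spanned 3.25 to 14.7, and the median of an array was 6.07 to 6.19. Of the array controls, the 25S ribosomal RNA control, a transcript without a poly(A) tail, read 5.55 to 6.41 at the baseline, 5.52 to 6.31 at the optimum, 5.25 to 13.0 at 20% inhibition and 8.67 to 11.4 at 30% inhibition. Within 20% inhibition it was 12.99, 10.41 and 12.88 in replicates 1, 2 and 4, but 5.25 in replicate 3, the lowest of all 16 arrays. The 3′ minus 5′ difference of the actin control, a measure of RNA integrity, averaged 2.096, 2.18, 2.32 and 2.42 along the curve, and that of the GAPDH control 0.75 at 30% inhibition, against 0.87 at the baseline. None of the 18 exact permutation tests of these 3 measures passed after adjustment (lowest adjusted p = 0.17). With a smallest p of 0.0286, a complete separation in 1 comparison alone could not pass after adjustment over 18 tests. At 30% inhibition the 25S control had that p against the baseline and the optimum (4.06 and 3.97 log2 units higher), and the actin measure against the baseline. These tests therefore cannot show that the controls were unchanged. The Rubisco activase gene RCA, the 1 measured of 4 mesophyll markers, read 14.41 to 14.62 on average per state (−0.20 at 20% inhibition against the baseline, adjusted p = 0.0011) and the root hair gene EXPA7 4.66 to 4.84. Both measured guard cell markers, FAMA and AT1G22690, fell at 20% inhibition against the baseline, by log2 changes of −0.42 ± 0.088 (SE; adjusted p = 8.1e-04) and −1.63 ± 0.18 (adjusted p = 9.2e-07). At 30% inhibition AT1G22690 fell by −1.83 ± 0.18 (adjusted p = 2.2e-07) and FAMA was not called (−0.17, adjusted p = 0.14). The part of these controls and markers in the results was not tested. Of the 6 phloem and 3 epidermis markers listed, 0 had a probe set of their own. In RNA of whole leaves, fewer cells of a type and less RNA per cell cannot be told apart.

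ATSPS4F signals formed 4 separate layers. On the log2 scale they were 10.29, 10.19, 9.79 and 10.12 in the baseline arrays, 8.53, 8.61, 8.67 and 8.61 at the optimum, 7.62, 7.41, 7.42 and 6.996 at 20% inhibition, and 6.91, 6.18, 6.03 and 6.64 at 30% inhibition. No 2 states overlapped, and the lowest array of each state lay above the highest array of the next. The state means were 10.10 ± 0.22, 8.60 ± 0.057, 7.36 ± 0.26 and 6.44 ± 0.41 (SD, n = 4 each), so the arrays were tightest at the optimum and widest at 30% inhibition.

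The fall of ATSPS4F was called at each of the 3 successive steps. Its log2 change was −1.50 ± 0.17 (SE) at the optimum against the baseline (adjusted p = 1.1e-05), −1.24 ± 0.17 at 20% inhibition against the optimum (adjusted p = 1.4e-05) and −0.92 ± 0.17 at 30% against 20% inhibition (adjusted p = 0.0025). Across the whole array, 62 of 22746 probe sets (0.273%) were called lower at all 3 steps, and 8.43%, 22.9% and 2.97% at each of them in turn. The steps themselves were not told apart: the second minus the first was 0.25 ± 0.29 (adjusted p = 0.56; in that test 9.51% of the whole array was higher and 12.5% lower by the same threshold) and the third minus the second 0.32 ± 0.29 (adjusted p = 0.47; 13.1% higher and 9.32% lower). By the optimum, where photosynthesis was at its highest, ATSPS4F already showed 40.9% of its total log2 fall, and by 20% inhibition 74.9%. The change at 30% inhibition against the baseline, −3.66 ± 0.17 (adjusted p = 1.4e-11), was the 7th lowest of the 22746, and that at the optimum the 9th lowest. The members were chosen with earlier results of these data known, so the rank of a member is a description and no independent support.

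**Figure D1:**
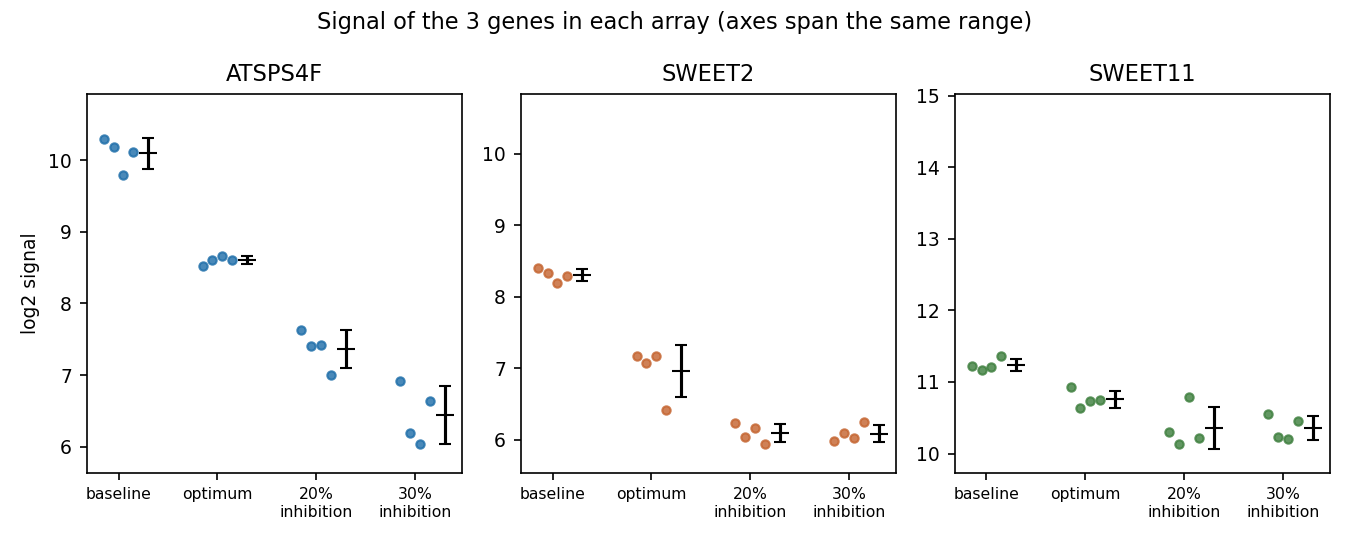
Log2 signal (vertical axis) of ATSPS4F, SWEET2 and SWEET11 in each of the 16 arrays by state (horizontal axis); coloured points are arrays in the order of their replicate number, black marks the mean with its SD of 4 arrays. ATSPS4F steps down at every state, while the arrays of 20% and 30% inhibition overlap for SWEET2 (means of 6.095 and 6.09) and SWEET11 (10.36 in both).

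SWEET2 fell at the first 2 steps and had no detected change at the last. Its log2 signals were 8.40, 8.33, 8.19 and 8.29 at the baseline, 7.17, 7.08, 7.18 and 6.41 at the optimum, 6.23, 6.05, 6.17 and 5.94 at 20% inhibition, and 5.98, 6.096, 6.03 and 6.25 at 30% inhibition. The baseline arrays stood more than 1 log2 unit above every other array, the optimum arrays lay above both inhibited states, and the 2 inhibited states overlapped. Optimum replicate 4 was apart from its group, close to the inhibited leaves. State means were 8.30 ± 0.087, 6.96 ± 0.37, 6.095 ± 0.13 and 6.09 ± 0.12 (SD).

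At the optimum SWEET2 had changed by −1.35 ± 0.13 (SE; adjusted p = 2.7e-06) against the baseline, the 15th lowest value of all probe sets and 60.7% of its total fall. Without optimum replicate 4 the change was −1.16. It fell further by −0.86 ± 0.13 at 20% inhibition against the optimum (adjusted p = 5.5e-05). The second step minus the first was 0.48 ± 0.23 (adjusted p = 0.14; 22.0% of all probe sets were called in that test). These steps were therefore not told apart. Without each array in turn that difference ran from 0.12 to 0.63 and was not called (highest adjusted p = 0.605). Between 30% and 20% inhibition the change was −0.0091 ± 0.13 (adjusted p = 0.98), with a 95% interval from −0.29 to 0.27. The last step therefore differed from the one before it by 0.85 ± 0.23 (adjusted p = 0.012; 22.4% of all probe sets were called in that test). Without replicate 4 of 20% inhibition that difference was 0.75 and missed the threshold (adjusted p = 0.051), and with the 25S control as a covariate it was 0.76 (adjusted p = 0.059).

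SWEET11 had a high signal in all states and lost less. Its log2 signals were 11.23, 11.16, 11.20 and 11.36 at the baseline, 10.92, 10.64, 10.73 and 10.74 at the optimum, 10.30, 10.13, 10.78 and 10.22 at 20% inhibition, and 10.55, 10.23, 10.20 and 10.46 at 30% inhibition. All baseline arrays were above all heated ones. Replicate 3 of 20% inhibition lay among the optimum arrays, while the other 3 arrays of that state lay below them. State means were 11.24 ± 0.086, 10.76 ± 0.12, 10.36 ± 0.29 and 10.36 ± 0.17 (SD).

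SWEET11 fell by a log2 change of −0.48 ± 0.12 (SE; 1.39-fold; adjusted p = 0.010) at the optimum against the baseline and by −0.40 ± 0.12 (1.32-fold; adjusted p = 0.012) at 20% inhibition against the optimum. At 30% against 20% inhibition it changed by 0.0010 ± 0.12 (adjusted p = 1.00), with a 95% interval from −0.25 to 0.25. Against the baseline the change was −0.88 ± 0.12 in both inhibited states (adjusted p = 9.3e-06 at 20% and 9.1e-06 at 30% inhibition). The third step minus the second, 0.40 ± 0.20, did not pass (adjusted p = 0.18), but without replicate 3 of 20% inhibition it was 0.69 and passed (adjusted p = 0.0042). That array, highest for SWEET11 in its state, was the one with a 25S control signal of 5.25. With the 25S control as a covariate, the change of SWEET11 was −0.12 ± 0.13 at 20% inhibition against the optimum (adjusted p = 0.53) and −0.14 ± 0.12 at 30% inhibition against the optimum (adjusted p = 0.41), so these calls ended, and against the baseline it was −0.59 and −0.62 and was still called. The control overlaps with the state, and its part in these values was not tested.

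**Figure D2:**
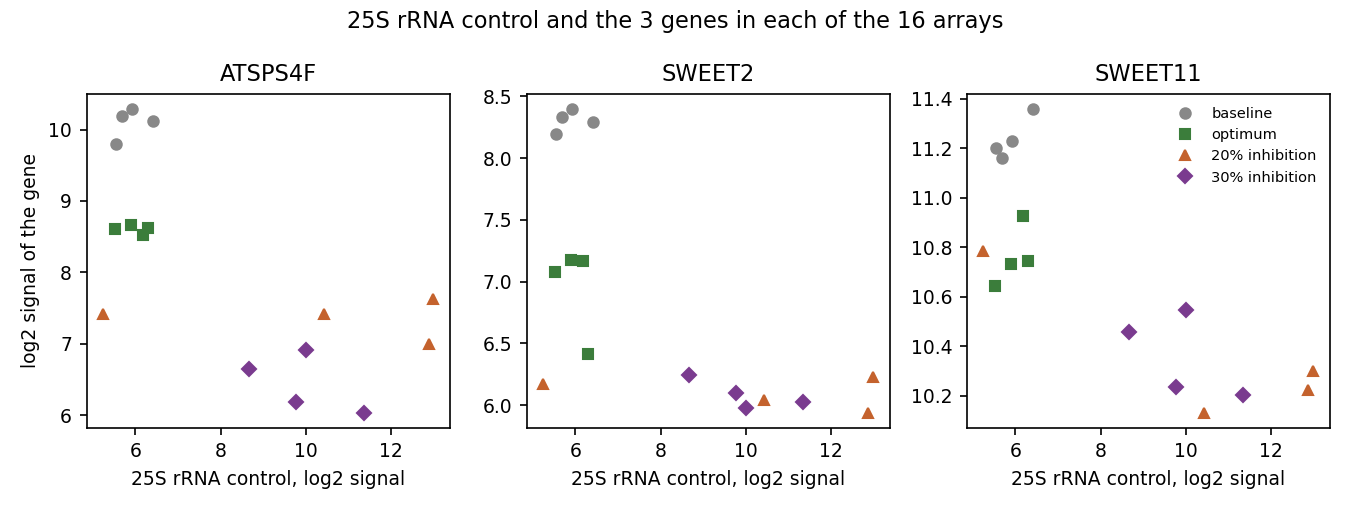
Log2 signal of each gene (vertical axes, which differ in range) against the log2 signal of the 25S rRNA control (horizontal axis) in the 16 arrays, with a symbol for each state. Replicate 3 of 20% inhibition sits alone at the left among the inhibited leaves, with ATSPS4F and SWEET2 at the level of its group and SWEET11 at the level of the optimum.

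In the same array, ATSPS4F (7.42) and SWEET2 (6.17) lay within the range of the other 3 arrays of 20% inhibition, and its 25S control was lower than in any baseline array. With the 25S control as a covariate, ATSPS4F was still called in all 6 comparisons of states, and SWEET2 in the same 5 as without it.

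Compared with each other within the arrays, the 3 genes did not lose the same amount. The difference between 2 genes' log2 signals was taken in each array and compared between states by exact permutation tests. They were 2-sided and adjusted over 18 tests, and the smallest p is 0.0286. Each adjusted p of 0.040 stands for that smallest p and does not grade the differences. Whether it passes depends on how many of the 18 tests, which share arrays, reach it. The change of ATSPS4F minus that of SWEET11 was −1.02 ± 0.14 (SE) log2 units at the optimum and −2.78 ± 0.16 at 30% inhibition against the baseline (adjusted p = 0.040 for both). The change of SWEET2 minus that of SWEET11 was −0.87 ± 0.19 at the optimum and −1.34 ± 0.12 at 30% inhibition against the baseline (adjusted p = 0.040 for both).

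ATSPS4F and SWEET2 were not told apart at the optimum, where the difference of their changes was −0.15 ± 0.20 (adjusted p = 0.51). They separated later, by −0.53 ± 0.10 at 20% inhibition and −1.44 ± 0.22 at 30% inhibition against the baseline (adjusted p = 0.040 for both). Between 30% and 20% inhibition the difference was −0.91 ± 0.22 (adjusted p = 0.040), and this missed the threshold when any 1 of the 4 arrays of 20% inhibition was left out (adjusted p = 0.079 each). The difference itself ran from −1.10 to −0.79 without each array, and with 1 array fewer the exact test has fewer assignments. The difference between SWEET2 and SWEET11 at 20% inhibition against the optimum was −0.46 ± 0.22 (adjusted p = 0.13), and without optimum replicate 4 it was −0.64 and passed (adjusted p = 0.037).

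**Figure D3:**
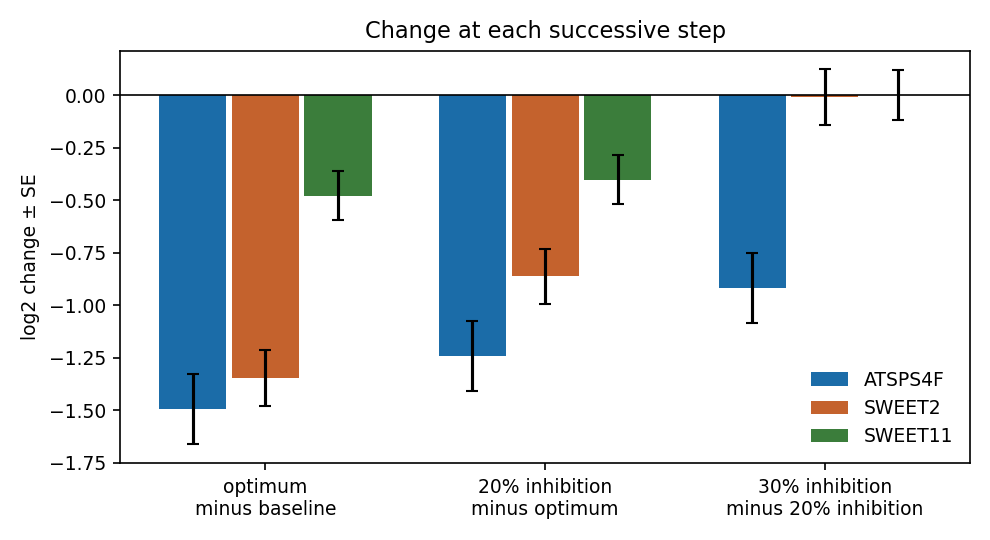
Log2 change (vertical axis, bars with SE from limma) of the 3 genes at each successive step of the temperature curve (horizontal axis). At the last step the bar of ATSPS4F is at −0.92, and those of SWEET2 and SWEET11 are within an SE of 0.

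Over the 16 arrays the 3 genes moved together, with Pearson correlations of 0.94 for ATSPS4F and SWEET2, 0.90 for ATSPS4F and SWEET11 and 0.91 for SWEET2 and SWEET11. Once each state's mean was taken out, the values were 0.22, 0.41 and 0.18. The points share arrays and states, and the first values include the differences between the 4 state means.

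Genes of sucrose synthesis were described from a list of 15 loci, of which 5 had a probe set of their own. ATSPS4F is 1 of these 5, and the counts and the median below include it. At 30% inhibition against the baseline all 5 fell, with a median log2 change of −0.84 against −0.012 over all probe sets (24.9% of all were called lower). At the optimum and at 20% inhibition 3 of the 5 fell (8.43% of all probe sets were called lower at the optimum and 24.9% at 20% inhibition) and 0 rose (limma, also 0 at an unadjusted p under 0.05). The 3 were ATSPS4F, AT2G35840 and F2KP, the enzyme that makes and removes fructose-2,6-bisphosphate, an inhibitor of the cytosolic step ahead of sucrose synthesis.

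F2KP lost most of its signal after the optimum. It averaged 10.45 ± 0.097, 10.09 ± 0.13, 9.02 ± 0.053 and 8.88 ± 0.072 (SD) along the curve, and its log2 change was −0.36 at the optimum against the baseline (adjusted p = 0.0014) and −1.07 at 20% inhibition against the optimum (adjusted p = 2.2e-09). AT2G35840 averaged 9.98 ± 0.065, 9.58 ± 0.10, 9.23 ± 0.14 and 9.14 ± 0.11 and fell by −0.84 at 30% inhibition against the baseline (adjusted p = 9.2e-08). The other 2 changed by less at 30% inhibition against the baseline, AT5G42740 by −0.25 (adjusted p = 0.0024) and AT3G54270 by −0.20 (adjusted p = 0.039). AT3G54270 was dim, at 4.28 to 4.82 over the 16 arrays, below the median of every array (6.07 to 6.19). The AT3G54270 call ended on leaving out any 1 of baseline replicates 2, 3 and 4 and 30% inhibition replicates 1 and 2 (highest adjusted p = 0.15), and both calls ended with the 25S control as a covariate (adjusted p = 0.076 for AT5G42740 and 0.27 for AT3G54270). Between 30% and 20% inhibition 1 of the 5 was called, ATSPS4F, where 2.97% of all probe sets were called lower and 7.16% in either direction.

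The SWEET family, with 16 of its 17 loci measured, did not move as one. SWEET12 is not analysed here. At the optimum against the baseline 6 of 16 fell and 0 rose (1 had a rise at an unadjusted p under 0.05, SWEET16), with a median of −0.16 against −0.029 over all probe sets, of which 8.43% were called lower and 8.14% higher. At 20% inhibition 5 fell and 1 rose (median −0.12 against 0.0047; 24.9% and 18.9% of all), and at 30% inhibition 6 fell and 2 rose (median −0.087 against −0.012; 24.9% and 19.3% of all). Against the optimum 4 fell and 2 rose at 20% inhibition (median 0.012 against 0.026; 22.9% and 18.8% of all). At 30% inhibition against the optimum 4 fell and 4 rose (median 0.056 against 0.020; 22.6% and 18.6% of all). The counts include SWEET2 and SWEET11 themselves. Of the 16, 9 read below the array median on every array.

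SWEET13, also known as a sucrose carrier, also fell at the first 2 steps. It averaged 8.17 ± 0.16, 7.31 ± 0.11, 6.11 ± 0.14 and 6.37 ± 0.30 (SD) along the curve, with log2 changes of −0.86 ± 0.12 (SE) at the optimum, −2.06 ± 0.12 at 20% inhibition and −1.80 ± 0.12 at 30% inhibition against the baseline (adjusted p = 1.4e-04, 4.6e-10 and 2.5e-09). No array of an inhibited state overlapped with an optimum or baseline array. The same held for 36.1% and 40.0% of all probe sets at 20% and 30% inhibition against the optimum. Against the baseline it held for 40.2% and 43.6%.

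SWEET1, a glucose carrier of the plasma membrane, went the other way. Its log2 signals were 8.28 to 8.53 at the baseline, 8.44 to 8.64 at the optimum, 9.49 to 9.77 at 20% inhibition and 9.57 to 9.67 at 30% inhibition. It changed by 0.13 ± 0.070 (SE; adjusted p = 0.24) at the optimum, and rose by 1.27 ± 0.070 at 20% inhibition and 1.21 ± 0.070 at 30% inhibition against the baseline (adjusted p = 1.7e-10 and 3.1e-10). The rise lay at the step from the optimum to 20% inhibition, 1.14 ± 0.070 (adjusted p = 1.3e-09), at which SWEET2, SWEET11 and SWEET13 fell.

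SWEET16, a carrier of the vacuolar membrane, rose by 0.88 ± 0.17 (SE; adjusted p = 4.3e-04) at 30% inhibition against the baseline. At the optimum it changed by 0.39 ± 0.17 against the baseline (adjusted p = 0.15). This was called when 20% inhibition replicate 3, an array outside that comparison, was left out (adjusted p = 0.032). Its log2 signals at 20% inhibition were split, with 6.91 and 7.32 in replicates 2 and 3 and 6.26 and 6.31 in replicates 1 and 4, the 2 arrays with the highest 25S control signals. Its change there against the baseline was 0.21 (adjusted p = 0.38), and 0.77 with the 25S control as a covariate (adjusted p = 2.2e-04). SWEET17, a fructose carrier of the same membrane, averaged 9.67 ± 0.14 at the baseline and 9.84 ± 0.080 at 30% inhibition (log2 change 0.17, adjusted p = 0.089). Against the optimum it rose by 0.27 at 30% inhibition (adjusted p = 0.0098), and this was called without each array in turn (highest adjusted p = 0.036).

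SWEET4, a hexose carrier, averaged 5.57, 5.32, 4.94 and 4.79 along the curve and fell by −0.78 at 30% inhibition against the baseline (adjusted p = 1.1e-07). Smaller falls there were those of SWEET5, known from the vegetative cell of pollen (−0.26, adjusted p = 2.8e-04), and SWEET15, a senescence-associated gene (−0.21, adjusted p = 0.040). SWEET4 and SWEET5 were dim, at 4.60 to 5.70 and 4.60 to 4.96 over the 16 arrays, below the median of every array (6.07 to 6.19). SWEET15 fell more at the optimum, by −0.34 (adjusted p = 0.0079), and this was called without each array in turn (highest adjusted p = 0.028), while at 20% inhibition it changed by −0.12 (adjusted p = 0.27). Its call at 30% inhibition ended on leaving out baseline replicate 2, 3 or 4, or any 1 array of 30% inhibition (highest adjusted p = 0.13). At the optimum the calls of SWEET4 (−0.25, adjusted p = 0.024) and SWEET5 (−0.16, adjusted p = 0.037) ended without baseline replicate 2 or 3 or optimum replicate 2, and without other arrays: baseline replicate 1 and optimum replicates 3 and 4 for SWEET5, and optimum replicate 1 for SWEET4 (highest adjusted p = 0.12 for SWEET5 and 0.085 for SWEET4). SWEET3, SWEET6, SWEET7, SWEET8, SWEET9, SWEET10 and SWEET14 changed by −0.20 (SWEET14) to 0.050 (SWEET10) at 30% inhibition against the baseline and were not called, and their 16 arrays all read between 4.32 and 5.13.

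**Figure D4:**
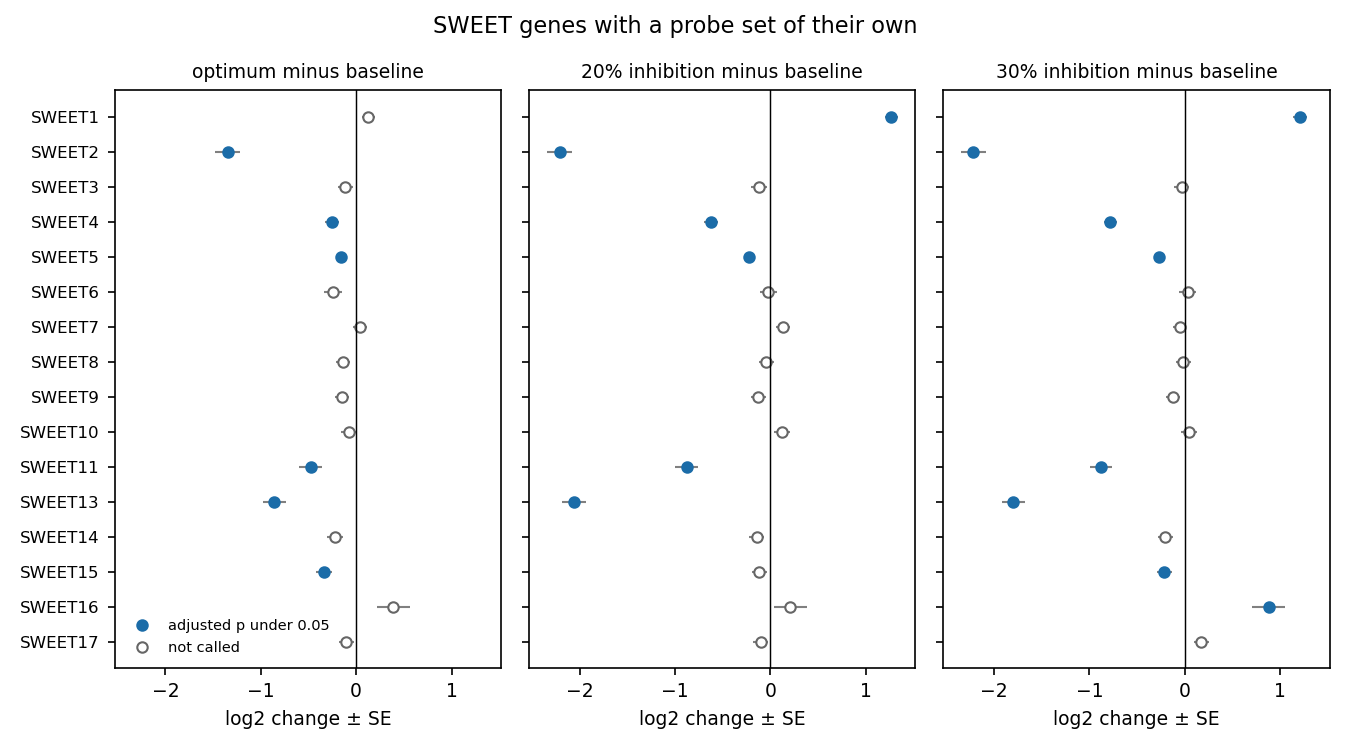
Log2 change against the baseline with SE (horizontal axes) of the 16 measured SWEET genes (rows) at the optimum, 20% and 30% inhibition; filled points have an adjusted p under 0.05. SWEET2, SWEET13 and SWEET11 lie to the left in all panels, SWEET1 lies at 1.27 and 1.21 in the inhibited states, and most others stay near 0.

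Among hexose and vacuolar carriers 9 of 23 listed loci were measured. TMT1, a tonoplast monosaccharide transporter that loads sugar into the vacuole, rose at the optimum and returned near its starting level. It averaged 7.43 ± 0.13, 8.37 ± 0.17, 7.54 ± 0.17 and 7.42 ± 0.099 (SD) along the curve. It rose by 0.94 at the optimum against the baseline (adjusted p = 5.5e-06), fell by 0.83 on the log2 scale at 20% inhibition against the optimum (adjusted p = 3.6e-06), and differed from the baseline by −0.013 at 30% inhibition (adjusted p = 0.93). Its relatives TMT2 and TMT3 were not called in any comparison, with changes of 0.14 and −0.12 at the optimum and 0.043 and −0.043 at 30% inhibition against the baseline.

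SFP1, a sugar porter family member, fell by −0.67, −1.38 and −1.71 at the optimum, 20% and 30% inhibition against the baseline (adjusted p = 0.0093, 2.1e-06 and 1.6e-07), and the related SFP2 by −0.65 at 30% inhibition (adjusted p = 3.2e-05). Of the listed hexose carriers without a symbol, AT5G61520 fell by −0.56 at 30% inhibition (adjusted p = 2.1e-05) and AT5G26250 rose by 0.23 (adjusted p = 0.030), a call that ended when baseline replicate 2 or either of 30% inhibition replicates 2 and 4 was left out (highest adjusted p = 0.12). AT1G34580 (−0.13) and AT3G19940 (−0.010) were not called there. AT5G26250 was dim, at 4.47 to 5.07 over the 16 arrays, below the median of every array (6.07 to 6.19). In the breakdown list 2 of 23 loci were measured: AT1G62660 rose by 0.58, 0.79 and 0.75 in the 3 heated states against the baseline (adjusted p = 3.8e-04, 2.1e-06 and 3.8e-06), and cwINV6, a fructan exohydrolase by its annotation, changed by −0.039 at 30% inhibition (adjusted p = 0.82).

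**Figure D5:**
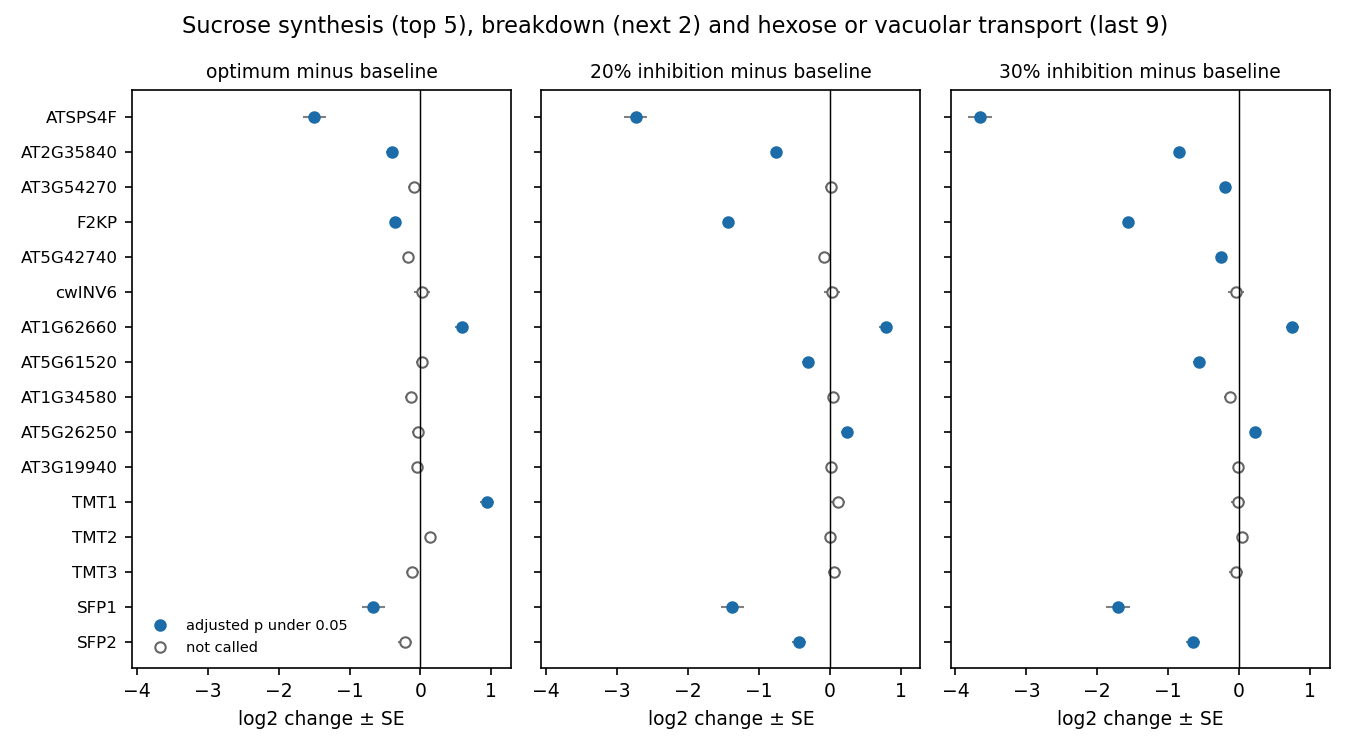
Log2 change against the baseline with SE (horizontal axes) of the other measured sugar genes (rows), in 3 panels for the optimum, 20% and 30% inhibition; filled points have an adjusted p under 0.05. ATSPS4F lies farthest left in each panel, and TMT1 lies to the right at the optimum (0.94) and near 0 in the inhibited states.

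Of the sucrose symporters, the carbon exporters of the chloroplast and the sugar sensing genes listed, 0 of 24 had a probe set of their own. Over all lists 32 of 102 loci were measured. In these, 10 fell and 2 rose at the optimum, 11 and 3 at 20% inhibition and 14 and 4 at 30% inhibition against the baseline, with medians of −0.14, −0.096 and −0.13, against −0.029, 0.0047 and −0.012 over all probe sets. Without ATSPS4F, SWEET2 and SWEET11, 7 of 29 fell and 2 rose at the optimum (8.43% and 8.14% of all probe sets), 8 and 3 at 20% inhibition (24.9% and 18.9%) and 11 and 4 at 30% inhibition (24.9% and 19.3%). Between 30% and 20% inhibition 1 fell and 2 rose (2.97% and 4.19% of all probe sets): ATSPS4F fell, and SWEET16 (0.67, adjusted p = 0.025) and SWEET17 (0.28, adjusted p = 0.043) rose. The SWEET16 call ended without 20% inhibition replicate 1 or 4 or 30% inhibition replicate 2, 3 or 4, and the SWEET17 call on leaving out any of 11 arrays.

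The genes whose signals followed each member most closely were found by Pearson correlation over the 16 arrays, among about 1210 probe sets of 1 gene whose state means spanned at least 1 log2 unit. For ATSPS4F they were AT5G52030 (0.989), AT1G10900 (0.988), AT4G12980 (0.986), AT5G36160 (0.984) and AT1G66130 (0.983). Their falls at 30% inhibition against the baseline, −1.12 to −2.21 on the log2 scale, were smaller than that of ATSPS4F. For SWEET2 they were AT5G20220 (0.986), AT2G27420 (0.983), AT1G01390 (0.983), AT4G14240 (0.979) and AT1G65870 (0.979), with changes of −1.31 to −3.93. For SWEET11 they were AT4G37560 (0.967), AT3G15570 (0.962), GT2 (AT1G76890; 0.960), AT4G26480 (0.954) and AT1G12500 (0.954), with changes of −1.16 to −1.94. The span of 1 log2 unit required of these genes is wider than that of SWEET11 itself (0.88), so their changes had to be larger. None of these 15 is a gene of the sugar lists, but most of the 32 list genes measured, of 102 listed, did not reach that span and could not appear here.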

How the data were processed

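Per the label protocols, biotin-labelled cRNA was made from 6 µg of total RNA of 100 mg of tissue. The deposited values were log2 signals per probe set, normalised by the authors with RMA per the submitters' processing notes, which also name limma, with no version. RMA equalises the distributions of the arrays, so a change is relative to the other probe sets, and the number of arrays limits the precision. The 64 controls were left out of the 22746 probe sets tested.

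One model with 4 state means was fitted to all 16 arrays in R 4.3.3 with limma 3.58.1 (lmFit, then eBayes; 12 residual degrees of freedom and 4.21 from the prior). Tests were 2-sided, with Benjamini-Hochberg adjustment over all probe sets of a comparison, and "rose" and "fell" are used at an adjusted p under 0.05. The fit was tested on simulated data. Genes were named from the array's annotation and RefSeq (assembly TAIR10.1, names only). A listed locus without a symbol there is given by its locus.

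The members, the lists, the naming rule (all measured list genes, and 5 most alike genes per member) and the tests were chosen with earlier results of these data known. The alternatives were a trended or robust prior, only the 8 arrays compared, a filter on dim probe sets, centred or again quantile-normalised arrays, array weights, the replicate number as a fixed or random block, the 25S control as a covariate, a threshold of 0.01 and leaving out each array.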

Additional observations from a re-analysis of the deposited data

Results flagged for a closer look

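In 5 of 132 groups of 4 arrays checked, 1 array stood far from the other 3 by the criterion of Dixon. Chance gives about 1 in 20. SWEET2 read 6.41 in optimum replicate 4, against 7.08 to 7.18 in the others. SWEET13 read 5.92 in 30% inhibition replicate 3, against 6.47 to 6.56. AT1G62660 read 8.65 in the same array, against 8.32 to 8.36. SWEET7 read 4.32 in optimum replicate 1, against 4.54 to 4.57, and TMT3 read 5.80 in 20% inhibition replicate 1, against 5.41 to 5.47. The causes were not tested.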

How the results depend on the processing

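ATSPS4F kept its direction and its call in all 6 comparisons of states under all 11 alternatives and without each array, and SWEET2 did so in its 5 called comparisons. The change of ATSPS4F at 30% inhibition against the baseline ran from −3.81 to −3.52 without each array, and that of SWEET2 from −2.27 to −2.18. Arrays that share a replicate number did not deviate together (correlations of −0.36 to 0.31, with 5 of 24 pairs over 0.1). With that number as a fixed block, no call of the 3 genes between states changed, but the calls of SWEET5 at the optimum and AT3G54270 at 30% inhibition against the baseline ended (adjusted p = 0.0515 and 0.0503). Over all probe sets the fixed block gave 9901 calls at 30% inhibition against the baseline in place of 10067, and 5 of 16 arrays correlated best with their own number.

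SWEET11 missed a threshold of 0.01 at the optimum against the baseline (−0.48, adjusted p = 0.0101), at 20% inhibition against the optimum (−0.40) and at 30% inhibition against the optimum (−0.40). With the 25S control as a covariate the last 2 were −0.12 and −0.14 and not called. The difference between the last 2 steps of SWEET2, a check added after seeing the data, was 0.76 and not called with the covariate (0.75 to 1.03 without each array) and 0.85 missed 0.01. That of SWEET11 was 0.60 and called with array weights (0.25 to 0.69 without each array). SWEET16, not called at 20% inhibition against the optimum (−0.18), was called in the opposite direction with the covariate (0.37).

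Among differences between members, ATSPS4F minus SWEET2 ran from −1.48 to −1.10 at 30% inhibition against the optimum, not called without optimum replicate 2, 3 or 4, from −1.10 to −0.79 against 20% inhibition, and from −0.47 to −0.19 at 20% inhibition against the optimum, called without optimum replicate 1. ATSPS4F minus SWEET11 ran from −1.04 to −0.81 at 30% against 20% inhibition, not called without 30% inhibition replicate 3. SWEET2 minus SWEET11 ran from −0.64 to −0.34 at 20% and from −0.65 to −0.37 at 30% inhibition against the optimum, called without optimum replicate 4.

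Counts over the sugar pathway lists moved by more than 1.5 times as follows. Rises at 20% inhibition against the optimum, 3, were 9 with arrays centred on their medians, 1 at a threshold of 0.01 and 2 to 5 without each array. Rises at 30% inhibition against the optimum, 5, were 3 without the dimmest 33.33% of probe sets or with the covariate, 2 at 0.01 and 3 to 5 without each array. Rises at 30% against 20% inhibition, 2, were 0 with only the 8 arrays compared or at 0.01, 1 with centred arrays, array weights or a random replicate block, and 0 to 2 without each array. Falls there, 1, were 2 with repeated quantile normalisation or array weights, and 1 to 2 without each array. The causes were not tested.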

Other observations

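Replicate 3 of 20% inhibition stood apart from the other arrays of its state in more than 1 sugar gene. In the array where that control read 5.25, SWEET16 (7.32) and SWEET11 (10.78) were at their highest of that state, while in the arrays where it read 12.99 and 12.88 SWEET16 was at 6.26 and 6.31 and SWEET11 at 10.30 and 10.22. In replicate 2, where the control read 10.41, SWEET16 was at 6.91, between these, and SWEET11 was at 10.13, its lowest of the state. SFP1 was also highest in the first array, at 8.22 against 7.44 to 7.78 in the other 3. These genes were picked after their values had been seen, and the part of the control in them was not tested.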
